A study of Mus musculus with 12 samples.

Results

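The chemokine receptor genes Cx3cr1, Ccr1, Ccr2, Ccr7, Cxcr4 and Ccrl2 were followed in bulk RNA sequencing of Cx3cr1+ macrophages from mouse lung. The 6 genes were found by their symbols among 52636 genes in the deposited count table, and each symbol had 1 gene ID there. All 6 passed the filter on low counts, which kept 16679 genes for testing. The 12 libraries fall into 3 groups of 4: lungs given bleomycin with the genotype label IL4Ra KO (bleomycin KO), lungs given bleomycin with the label IL4Ra WT (bleomycin WT), and lungs given saline with the label IL4Ra WT (saline WT). Bleomycin is a DNA-damaging drug whose lung injury serves as a common mouse model of fibrosis. The groups compare macrophages with and without deletion of Il4ra, the receptor chain shared by the cytokines IL-4 and IL-13, during that injury. The 12 libraries include no saline group with the deletion, so the genotypes cannot be compared without injury. What drives the deletion, the mouse strain, the age, the dose, the time after bleomycin and the way the cells were collected are not stated in the labels. Nothing in the labels ties libraries to animals, so the p-values describe the spread over the libraries at hand, part or all of which may be technical.

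Chemokine receptors are G-protein-coupled receptors that steer leukocytes along gradients of small secreted proteins, the chemokines. Cx3cr1 binds fractalkine (Cx3cl1) and is carried by non-classical monocytes and by many tissue macrophages. Ccr2 binds Ccl2 and related chemokines and brings classical monocytes out of the bone marrow and into injured tissue, where those that become macrophages commonly lower Ccr2 and raise Cx3cr1. Ccr1 binds inflammatory chemokines such as Ccl3, Ccl5 and, in mice, Ccl6 and Ccl9, and is also carried by neutrophils. Ccr7 binds Ccl19 and Ccl21 and guides dendritic cells and T cells to lymph nodes, and Cxcr4 binds Cxcl12 and holds leukocytes in the marrow. Ccrl2 is an atypical receptor that binds chemerin (encoded by Rarres2) and presents it to neighbouring cells without classical G-protein signalling. Cx3cr1 names the collected cells, so its presence follows from the collection, and the labels do not state whether the protein or a reporter allele was read.

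Of the 6 genes, 4 lie on chromosome 9 of GRCm38: Ccrl2 (ENSMUSG00000043953, 111054486 to 111057519, minus strand), Cx3cr1 (ENSMUSG00000052336, 119901616 to 120069879, minus strand), Ccr1 (ENSMUSG00000025804, 123962124 to 123968692, minus strand) and Ccr2 (ENSMUSG00000049103, 124101950 to 124113557, plus strand). Ccr7 lies on chromosome 11 (ENSMUSG00000037944, 99144196 to 99155077, minus strand) and Cxcr4 on chromosome 1 (ENSMUSG00000045382, 128588199 to 128592293, minus strand), and the annotation calls all 6 protein-coding. Cx3cr1 shares 78 exonic bases with the gene model Gm33858, and the other 5 genes share none with another gene. The 250 bases before the RefSeq start are printed for 3 members, in GRCm38.p6 and on the gene's own (minus) strand. They are Ccrl2, the gene whose bleomycin and saline libraries did not overlap, Cx3cr1, the gene that names the cells and lay the other way, and Ccr1, the other member with a motif match. The Ccrl2 window, the most upstream of 3 RefSeq starts, is chr9:111057519-111057768, the Cx3cr1 window is chr9:120068297-120068546, inside the annotated span of the gene, and the Ccr1 window is chr9:123968693-123968942.
Ccrl2: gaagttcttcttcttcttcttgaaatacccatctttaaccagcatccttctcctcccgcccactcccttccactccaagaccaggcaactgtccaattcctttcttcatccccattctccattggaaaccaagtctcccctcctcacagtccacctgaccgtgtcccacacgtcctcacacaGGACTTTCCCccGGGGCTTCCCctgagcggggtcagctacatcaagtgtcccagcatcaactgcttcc
Cx3cr1: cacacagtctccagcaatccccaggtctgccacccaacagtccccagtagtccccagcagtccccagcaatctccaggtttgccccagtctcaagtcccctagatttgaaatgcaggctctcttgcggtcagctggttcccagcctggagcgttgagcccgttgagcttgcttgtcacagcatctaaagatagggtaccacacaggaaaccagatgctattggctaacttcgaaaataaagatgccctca
Ccr1: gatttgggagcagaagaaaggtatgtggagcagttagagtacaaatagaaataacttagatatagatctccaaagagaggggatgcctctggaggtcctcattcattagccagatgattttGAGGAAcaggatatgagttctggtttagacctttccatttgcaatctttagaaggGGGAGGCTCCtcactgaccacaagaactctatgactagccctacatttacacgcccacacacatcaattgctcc
Capitals mark matches on either strand to 5 motifs that were searched by their letters. The motifs were NF-kB (GGGA, any 4 bases, then CC), STAT6, the factor that the IL-4 receptor activates (TTC, any 4 bases, then GAA), AP-1 (TGANTCA), PU.1 (GAGGAA) and CEBP (TTGCNNAA). In Ccrl2, 2 NF-kB matches lie 68 and 56 bases before the start, both on the opposite strand (GGACTTTCCC and GGGGCTTCCC). In Ccr1, 1 NF-kB match (GGGAGGCTCC) lies 74 bases and 1 PU.1 match (GAGGAA) 129 bases before the start, and the 2 do not overlap. An NF-kB match is present in 17.6% of 32851 such mouse windows, a PU.1 match in 23.3%, a STAT6 match in 5.85%, an AP-1 match in 6.75% and a CEBP match in 9.56%. The windows at the other Ccrl2 starts and those of Cx3cr1, Ccr2 and Cxcr4 held none of the 5 motifs. This says only that these letters are not in them. These are matches of letters, and binding was not measured.

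The labels used here name no batch, and 2 libraries stand apart in total counts or in scaling factor. Total counts were 8514384 to 16842991 in bleomycin KO, 9600870 to 18051113 in bleomycin WT and 60598 to 10168525 in saline WT. The lowest total is that of saline WT 2, which held counts for 4830 genes, against 17835 to 30283 genes in the other 11 libraries. There the 6 receptors rest on 87 counts of Cx3cr1, 9 of Ccrl2, 4 of Ccr2, 1 of Ccr1, 1 of Cxcr4 and 0 of Ccr7, and 3 counts are worth 32.4 CPM (counts per 1000000 of the TMM-scaled library size). Bleomycin WT 4 had the lowest scaling factor, 0.579, against 0.898 to 1.54 in the others. Results are therefore also given from 10 libraries, without these 2. Il4ra itself overlapped between genotypes, at 235 to 473 CPM in the libraries labelled KO, against 138 to 626 CPM in bleomycin WT and 32.4 to 302 CPM in saline WT; the counts are summed over the gene, so they do not show whether a part of it was deleted. All 8 macrophage markers examined (Adgre1, Cd68, Csf1r, Mertk, Fcgr1, Itgam, Lyz2 and Ptprc) had counts in 11 libraries, and Mertk was at 0 in saline WT 2.

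Per kilobase of exon, Ccrl2 stood at the top of the 6 receptors in every group mean, and Cx3cr1 stood at the bottom in both bleomycin groups. In bleomycin KO the mean CPM per kb was 701 for Ccrl2, 152 for Ccr1, 132 for Ccr7, 83.2 for Ccr2, 45.3 for Cxcr4 and 21.6 for Cx3cr1. Among neighbours in that order, the libraries overlapped for Ccr1 and Ccr7 alone. In bleomycin WT the order of the length-scaled means was the same, with 652 for Ccrl2, 122 for Ccr1, 121 for Ccr7, 112 for Ccr2, 62.9 for Cxcr4 and 12.6 for Cx3cr1, and the libraries of the neighbours Ccr1 to Cxcr4 overlapped. In saline WT it was Ccrl2 (213), Ccr7 (125), Cx3cr1 (76.0), Ccr1 (74.2), Cxcr4 (41.8) and Ccr2 (31.6), and each neighbour overlapped the next. Ccrl2 was thus an abundant transcript among all tested genes, at percentile 99.5 of the mean length-scaled level, and the other members lay between percentile 87.7 (Cx3cr1) and 96.6 (Ccr7). The 6 members had 53.7% to 65.0% of their summed length-scaled level in Ccrl2 in the 8 bleomycin libraries, and 38.4% to 42.4% in saline WT 1, 3 and 4. In saline WT 2 that share was 14.3%, and Cx3cr1 held 79.6%.

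**Figure D1:**
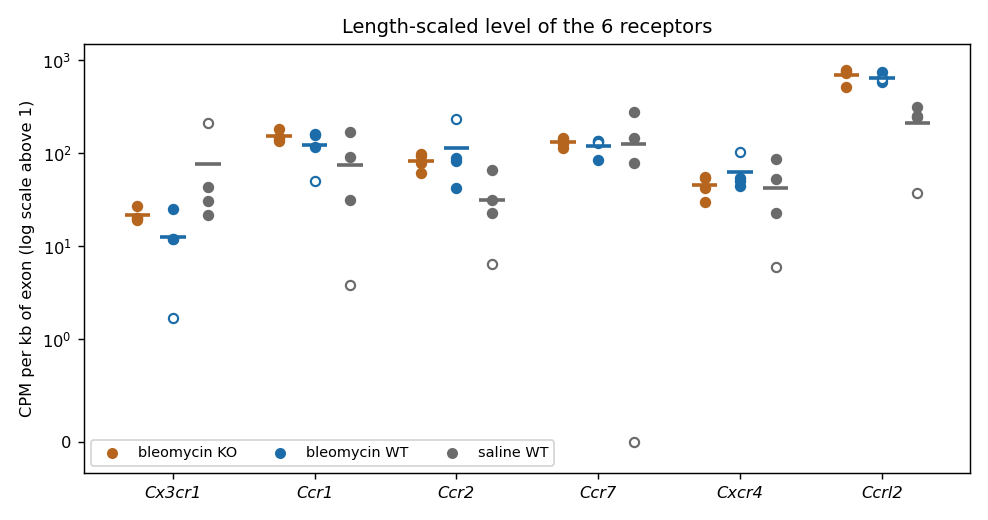
Length-scaled level (CPM per kilobase of exon, log scale above 1, linear below) of the 6 receptors in each of 12 libraries, with bars at the group means; open points are saline WT 2 and bleomycin WT 4. Ccrl2 stands highest in the bleomycin groups, at means of 701 in KO and 652 in WT, against 213 in saline WT.

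Cx3cr1 was at similar levels in the bleomycin KO libraries, varied in bleomycin WT and was highest in saline WT. It stood at 86.2, 90.6, 91.3 and 121 CPM in bleomycin KO 1 to 4. In bleomycin WT 1 to 4 it stood at 53.5, 113, 53.7 and 7.46 CPM. In saline WT 1 to 4 it stood at 196, 940, 136 and 98.1 CPM. The saline mean rests on saline WT 2, whose 87 counts give an exact 95% Clopper-Pearson interval of 753 to 1159.8 CPM, and bleomycin WT 4 was the lowest library, with 42 counts and an interval of 5.38 to 10.1 CPM. These intervals cover counting error only. Bleomycin WT 2, at 113 CPM, lay above saline WT 4, and bleomycin KO 4, at 121 CPM, lay above it too, so each bleomycin group overlapped saline WT by 1 library.

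The group means were 97.3 ± 16.1 CPM in bleomycin KO, 57.0 ± 43.3 in bleomycin WT and 343 ± 401 in saline WT (SD, n = 4 each). For bleomycin WT against saline WT the log2 fold change of Cx3cr1 was -2.54 (SE 0.79, interval at 95% from -4.22 to -0.85; edgeR adjusted p 0.225). On log2(CPM + 1) the difference was -2.44, with p = 0.0571 in an exact permutation test (two-sided), where 4 against 4 can reach 0.0286. Without saline WT 2 the fold change was -1.23, and in 10 libraries it was -1.0 (SE 0.36, edgeR adjusted p 0.264; exact permutation p 0.2, where 3 against 3 can reach 0.1). For bleomycin KO against saline WT the log2 fold change was -1.77 (SE 0.77, edgeR adjusted p 0.519; exact permutation p 0.0571), and -0.48 without saline WT 2. For bleomycin KO against bleomycin WT it was 0.77 (SE 0.75, 95% interval -0.81 to 2.35, edgeR adjusted p 0.9998; exact permutation p 0.114). The fold change of Cx3cr1 against saline stayed below 0 with any 1 library left out, but it did not pass the adjusted threshold of edgeR in 12 or in 10 libraries.

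Markers of non-classical monocytes, which carry Cx3cr1, and of neutrophils also had fold changes below 0 against saline. The summed level of 6 non-classical monocyte markers (Nr4a1, Ace, Treml4, Adgre4, Spn and Cd300e) was 983 to 1655 CPM in bleomycin KO, 169 to 1882 CPM in bleomycin WT and 584 to 3279 CPM in saline WT. Of these 6, 0 passed the adjusted threshold in bleomycin WT against saline WT, all 6 had a fold change below 0, and their median was -2.47 on the log2 scale, against 0.08 over all tested genes. Nr4a1, an immediate early gene at -0.30, made up most of the mean sum in each group, while Treml4, Adgre4 and Cd300e were at -3.90, -3.11 and -4.58. In 10 libraries Treml4 fell against saline WT in bleomycin KO (edgeR adjusted p 0.0114) and in bleomycin WT (0.0169). The lowest sum was in bleomycin WT 4, where Cd300e was at 0, and Spn and Cd300e were at 0 in saline WT 2. The 7 neutrophil markers, led by S100a8 and S100a9, summed to 1077 to 1769 CPM in bleomycin KO, 551 to 1482 CPM in bleomycin WT and 2550 to 27744 CPM in saline WT. Of these 7, 0 passed in 12 libraries, with a median log2 fold change of -3.07 in bleomycin WT against saline WT. In 10 libraries S100a9 fell in bleomycin WT (edgeR adjusted p 0.0407), and S100a8, S100a9 and Retnlg fell in bleomycin KO (0.0431, 0.0325 and 0.0461), all against saline WT. Of all 18812 genes tested there, 27 fell in bleomycin WT and 50 in bleomycin KO against saline WT. Ly6g was at 0 in bleomycin KO 2, bleomycin WT 4, saline WT 1 and saline WT 2. The part of these cells in the Cx3cr1 difference was not tested, and in bulk RNA fewer cells of a type and less RNA per cell cannot be told apart.

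**Figure D2:**
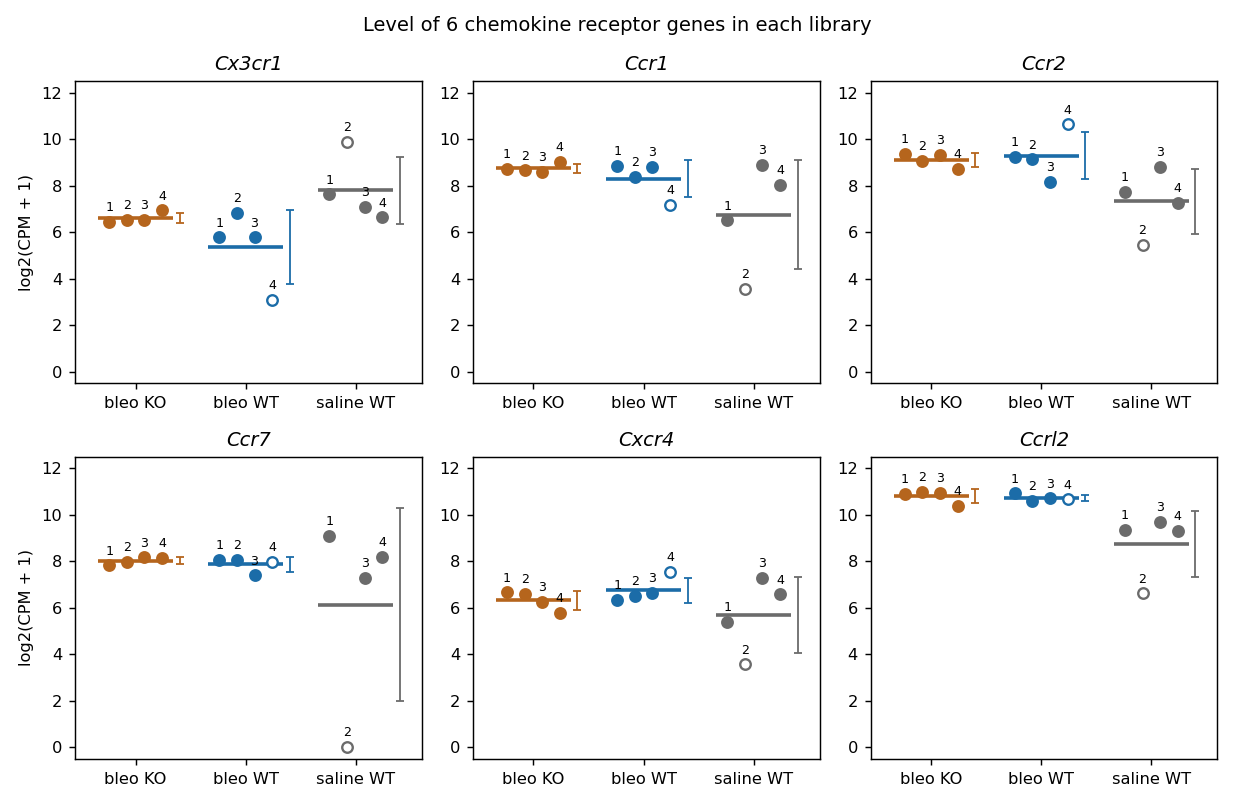
Level of each receptor, as log2(CPM + 1), in every library (points, with replicate numbers) of bleomycin KO, bleomycin WT and saline WT; horizontal lines are group means, bars beside them 1 SD (n = 4), and open points are saline WT 2 and bleomycin WT 4. All 8 bleomycin libraries lie above all 4 saline libraries for Ccrl2, while bleomycin and saline libraries overlap for the other 5 genes.

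Ccr2, the receptor of monocytes arriving in tissue, was higher on average in both bleomycin groups than in saline. Its levels were 665, 536, 632 and 417 CPM in bleomycin KO 1 to 4. They were 603, 559, 288 and 1588 CPM in bleomycin WT 1 to 4 and 212, 43.2, 448 and 152 CPM in saline WT 1 to 4. Bleomycin WT 4, the library with the least Cx3cr1, had the most Ccr2, and saline WT 2, the library with the most Cx3cr1, had the least. Saline WT 3 lay above bleomycin KO 4 and bleomycin WT 3, so the groups overlapped. The means were 563 ± 111 CPM in bleomycin KO, 760 ± 569 in bleomycin WT and 214 ± 171 in saline WT (SD, n = 4 each). For bleomycin WT against saline WT the log2 fold change of Ccr2 was 1.79 (SE 0.61, interval at 95% from 0.50 to 3.09; edgeR adjusted p 0.239). In 10 libraries it was 0.82 (SE 0.40, edgeR adjusted p 0.385). The fold changes of bleomycin KO against saline WT were 1.36 in 12 libraries (SE 0.60, edgeR adjusted p 0.522) and 1.04 in 10 (SE 0.38, adjusted p 0.212). Between bleomycin KO and bleomycin WT the sign turned, at -0.43 in 12 libraries (SE 0.59) and 0.22 in 10 (SE 0.37), with edgeR adjusted p of 0.9998 and 0.9999.

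The balance of Ccr2 and Cx3cr1 within a library needs no scaling between libraries. The ratio of Ccr2 to Cx3cr1, both per kilobase, was 5.15, 3.94, 4.61 and 2.30 in bleomycin KO 1 to 4, and 7.51, 3.29, 3.57 and 142 in bleomycin WT 1 to 4. In saline WT 1 to 4 it was 0.721, 0.0306, 2.19 and 1.03. Each of the 8 bleomycin ratios was above each of the 4 saline ratios, and the extremes were the libraries that stand apart, bleomycin WT 4 and saline WT 2. The nearest values, 2.30 in bleomycin KO 4 and 2.19 in saline WT 3, were close to each other. The ratio is a description of these 12 libraries, chosen after the levels had been seen, and was not tested. The 6 classical monocyte markers summed to 1402 to 2151 CPM in bleomycin KO, 806 to 3211 CPM in bleomycin WT and 1492 to 6045 CPM in saline WT, with 0 of 6 past the threshold in 12 libraries and a median log2 fold change of -1.09 in bleomycin WT against saline WT. Most of the mean sum was Chil3, which the alveolar macrophage list also holds, at means of 1088 CPM in bleomycin KO, 1359 in bleomycin WT and 1971 in saline WT. In 10 libraries Plac8 fell against saline WT in bleomycin KO (edgeR adjusted p 0.0456) and in bleomycin WT (0.0478), where 50 and 27 of 18812 genes fell.

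Ccr1, a receptor for Ccl3, Ccl5, Ccl6 and Ccl9, varied among the saline libraries. It stood at 419, 403, 380 and 516 CPM in bleomycin KO 1 to 4 and at 460, 332, 449 and 143 CPM in bleomycin WT 1 to 4. In saline WT 1 to 4 it stood at 89.7, 10.8, 479 and 261 CPM. Saline WT 3 lay inside the range of bleomycin KO and above every bleomycin WT library, and bleomycin WT 4 lay below saline WT 4. The means were 430 ± 60.0 CPM in bleomycin KO, 346 ± 147 in bleomycin WT and 210 ± 207 in saline WT (SD, n = 4 each). The log2 fold change of Ccr1 was 0.68 for bleomycin WT against saline WT (SE 0.67, edgeR adjusted p 0.670), 0.31 for bleomycin KO against bleomycin WT (SE 0.67, adjusted p 0.9998) and 0.99 for bleomycin KO against saline WT (SE 0.68, adjusted p 0.716). Without saline WT 3 the first of these was 1.56 and the last 1.87. Saline WT 3 and 4, the saline libraries with the most Ccr1, also had the highest neutrophil marker sums of all 12, at 27744 and 17345 CPM, and the part of neutrophils in these Ccr1 levels was not tested.

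Ccr7, the lymph-node homing receptor, had like means in the 3 groups and the widest spread in saline. Its levels were 226, 251, 287 and 282 CPM in bleomycin KO 1 to 4 and 267, 268, 167 and 253 CPM in bleomycin WT 1 to 4. In saline WT 1 to 4 they were 546, 0, 157 and 288 CPM, and the 0 of saline WT 2 allows up to 32.4 CPM (3 counts). Saline WT 1 lay far above every bleomycin library, saline WT 4 was level with bleomycin KO 3, and saline WT 2 and 3 lay below all 8 bleomycin libraries. The means were 262 ± 28.3 CPM in bleomycin KO, 239 ± 48.3 in bleomycin WT and 248 ± 231 in saline WT (SD, n = 4 each). The log2 fold change of Ccr7 was -0.09 for bleomycin WT against saline WT (SE 0.71, 95% interval -1.59 to 1.42, edgeR adjusted p 0.974), and its sign changed between alternatives. Set against bleomycin WT, bleomycin KO had a log2 fold change of 0.13 (SE 0.71; adjusted p in edgeR 0.9998). Dendritic cell markers were read in the same libraries. The 8 markers of migratory and conventional dendritic cells summed to 428 to 516 CPM in bleomycin KO, 212 to 553 CPM in bleomycin WT and 43.2 to 1139 CPM in saline WT. Most of each group's mean sum was the chemokine genes Ccl17 and Ccl22. Ccl17 averaged 201, 187 and 122 CPM in bleomycin KO, bleomycin WT and saline WT, and Ccl22 averaged 119, 80.4 and 159 CPM. The sum therefore describes these chemokine genes more than the other markers of the list. Saline WT 1 had the highest sum and the highest Ccr7, bleomycin WT 3 the lowest sum of the bleomycin libraries and the lowest Ccr7 among them, and saline WT 2 had 6 of the 8 markers at 0. The part of dendritic cells in the Ccr7 level was not tested.

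Cxcr4, the receptor for Cxcl12, was next to Cx3cr1 at the low end of the length-scaled levels in both bleomycin groups. It stood at 101, 97.0, 75.8 and 54.0 CPM in bleomycin KO 1 to 4, at 79.4, 90.4, 98.4 and 186 CPM in bleomycin WT 1 to 4, and at 41.1, 10.8, 155 and 94.6 CPM in saline WT 1 to 4. The 3 groups overlapped, with bleomycin WT 4 highest and saline WT 2, on 1 count, lowest. The means were 81.9 ± 21.5 CPM in bleomycin KO, 114 ± 48.9 in bleomycin WT and 75.4 ± 63.5 in saline WT (SD, n = 4 each). The log2 fold change of Cxcr4 was 0.51 for bleomycin WT against saline WT (SE 0.60, edgeR adjusted p 0.728), and -0.13 in 10 libraries. Set against bleomycin WT, bleomycin KO had a log2 fold change of -0.47 (SE 0.60; adjusted p in edgeR 0.9998). Bleomycin WT 4 also had the highest sums of T and NK cell markers (721 CPM, against 168 to 403 in bleomycin KO, 166 to 346 in the other bleomycin WT libraries and 10.8 to 270 in saline WT) and of B cell markers (355 CPM, against 64.2 to 195, 81.7 to 137 and 64.9 to 300 CPM in the same groups). Lymphocytes carry Cxcr4 and some carry Ccr2, and their part in the levels of bleomycin WT 4 was not tested.

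Ccrl2, the chemerin-binding atypical receptor, was higher in both bleomycin groups than in saline, and its groups did not overlap. It stood at 1915, 2041, 1991 and 1333 CPM in bleomycin KO 1 to 4, at 1940, 1536, 1670 and 1625 CPM in bleomycin WT 1 to 4, and at 657, 97.3, 819 and 639 CPM in saline WT 1 to 4. The lowest bleomycin library, bleomycin KO 4, lay above the highest saline library, saline WT 3, and saline WT 2 was far below the other 3 saline libraries, on 9 counts. The means were 1820 ± 329 CPM in bleomycin KO, 1693 ± 174 in bleomycin WT and 553 ± 314 in saline WT (SD, n = 4 each). For bleomycin WT against saline WT the log2 fold change of Ccrl2 was 1.60 in 12 libraries (SE 0.48, interval at 95% from 0.58 to 2.62; edgeR adjusted p 0.219). In 10 libraries Ccrl2 rose by 1.26 on the log2 scale (SE 0.20, edgeR adjusted p 0.0338), with means of 1719 ± 226 CPM for bleomycin WT and 717 ± 93.6 CPM for saline WT (SD, n = 3 each). For bleomycin KO against saline WT the log2 fold change was 1.70 in 12 libraries (SE 0.48, edgeR adjusted p 0.266) and 1.35 in 10, where it passed (SE 0.20, adjusted p 0.0190). Leaving out any 1 library kept the fold change between 1.34 and 1.95 in bleomycin WT against saline WT. For bleomycin KO against bleomycin WT it was 0.10 (SE 0.47, 95% interval -0.89 to 1.10, edgeR adjusted p 0.9998).

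The macrophage markers were, like Ccrl2, at higher sums in the bleomycin groups on the whole, with overlap between bleomycin WT and saline WT. The 8 markers summed to 39444 to 60610 CPM in bleomycin KO, 21284 to 43632 CPM in bleomycin WT and 11199 to 33949 CPM in saline WT, and Lyz2, which encodes lysozyme, made up most of each sum. Of the 8, 0 passed the threshold for bleomycin WT against saline WT in 12 libraries, and 5 were higher and 3 lower. In 10 libraries Fcgr1 rose against saline WT in bleomycin KO (edgeR adjusted p 0.0269) and in bleomycin WT (0.0371), where 0.377% and 0.287% of tested genes rose. The 7 interstitial macrophage markers, led by C1qb and C1qa, summed to 7568 to 10398 CPM in bleomycin KO, 8058 to 10657 CPM in bleomycin WT and 2998 to 8796 CPM in saline WT, and most of each group's mean sum was C1qb and C1qa. For bleomycin WT against saline WT 3 of the 7 were higher and 4 lower, with a median log2 fold change of -0.38 and values of -2.77 for Cd163, -2.23 for Lyve1 and -1.14 for Folr2; 0 passed in 12 or in 10 libraries. The 7 alveolar macrophage markers, led by Chil3, summed to 983 to 1635, 526 to 2256 and 1351 to 4122 CPM in the same groups. For bleomycin WT against saline WT all 7 had a fold change below 0 (median -1.06) and 0 passed in 12 libraries. In 10 libraries Ear1 fell in bleomycin WT (edgeR adjusted p 0.0411), and Ear1 and Krt79 fell in bleomycin KO (0.0325 and 0.0413), all against saline WT. Of 18812 genes, 27 fell in bleomycin WT and 50 in bleomycin KO there. Siglecf, Ear1 and Pparg of the alveolar list were at 0 in saline WT 2. Neutrophils also carry Ccrl2 in mice, and their markers summed to 2550, 3016, 27744 and 17345 CPM in saline WT 1 to 4. Saline WT was the group with the least Ccrl2, at 657, 97.3, 819 and 639 CPM in the same libraries. The part of the cell makeup in the Ccrl2 difference was not tested.

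**Figure D3:**
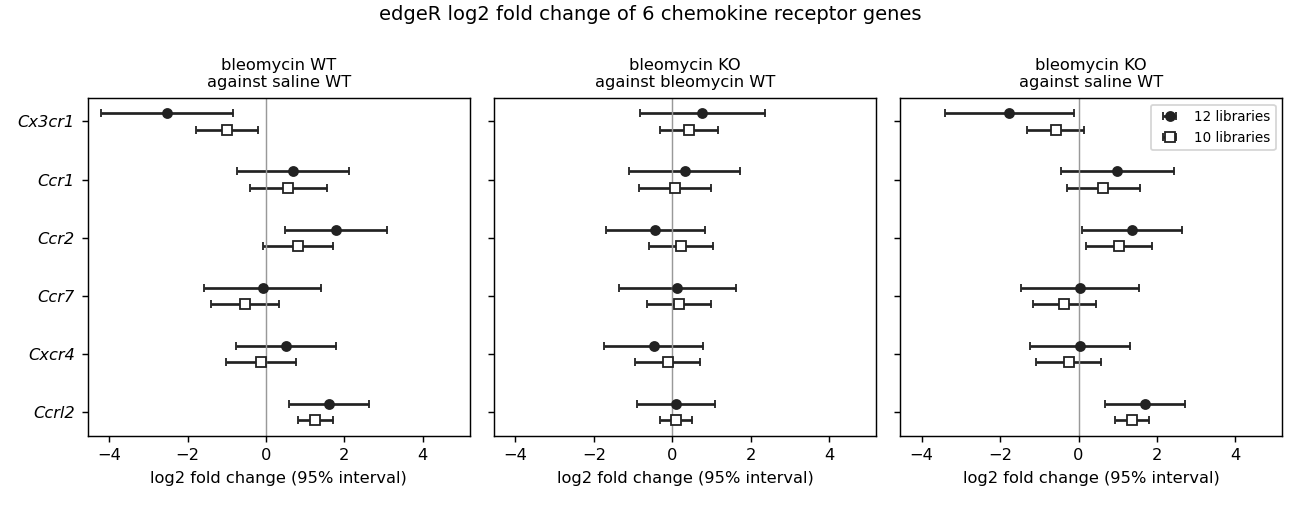
edgeR log2 fold changes with 95% intervals of the 6 receptors in 3 comparisons, with 12 libraries (filled circles) and with 10 (open squares, without saline WT 2 and bleomycin WT 4). In bleomycin WT against saline WT, Ccrl2 stands at 1.60 with 12 libraries and 1.26 with 10, and Cx3cr1 at -2.54 and -1.0; in bleomycin KO against bleomycin WT all 12 intervals include 0.

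Read by comparison, bleomycin WT against saline WT asks what differed with the injury in wild-type libraries. In 12 libraries 0 of the 6 receptors passed the edgeR adjusted threshold of 0.05, and 4 of 16679 genes did (0.024%). At an unadjusted edgeR p under 0.05 there were 3 receptors, Ccr2 and Ccrl2 higher and Cx3cr1 lower, where 14.7% of all tested genes lay under it (8.47% higher and 6.19% lower). Groups without overlap, all bleomycin WT libraries above all saline WT libraries, were seen for 1 of 6 receptors (Ccrl2) and for 4.93% of tested genes. DESeq2 called 1 receptor (Cx3cr1, adjusted p 0.0157), limma-voom 0, and limma-voom with quality weights 1 (Ccrl2, adjusted p 0.0377). In 10 libraries 1 receptor (Ccrl2) passed and was higher, against 0.431% of 18812 genes (0.287% higher).

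Bleomycin KO against bleomycin WT asks what differed with the genotype label under injury. Here 0 of 6 receptors and 0 of 16679 genes (0%) passed in edgeR, 0 receptors were under an unadjusted p of 0.05, where 3.88% of genes were, and DESeq2 and both limma-voom fits called 0 receptors. The largest of the 6 fold changes was that of Cx3cr1, 0.77, with an interval from -0.81 to 2.35, so these 8 libraries fix the size of the differences loosely. Ccrl2 had the narrowest interval of the 6, -0.89 to 1.10.

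Bleomycin KO against saline WT shares its saline libraries with the first comparison and its KO libraries with the second, so its values are not a separate line of evidence. In 12 libraries 0 of 6 receptors passed in edgeR, against 0.018% of tested genes, and 3 (Ccr2 and Ccrl2 higher, Cx3cr1 lower) were under an unadjusted p of 0.05, against 9.03% of genes (2.96% higher and 6.07% lower). Ccrl2 alone had all 4 bleomycin KO libraries above all 4 saline WT libraries, as did 8.17% of tested genes. In 10 libraries 1 receptor (Ccrl2) passed and was higher, against 0.643% of genes (0.377% higher).

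**Figure D4:**
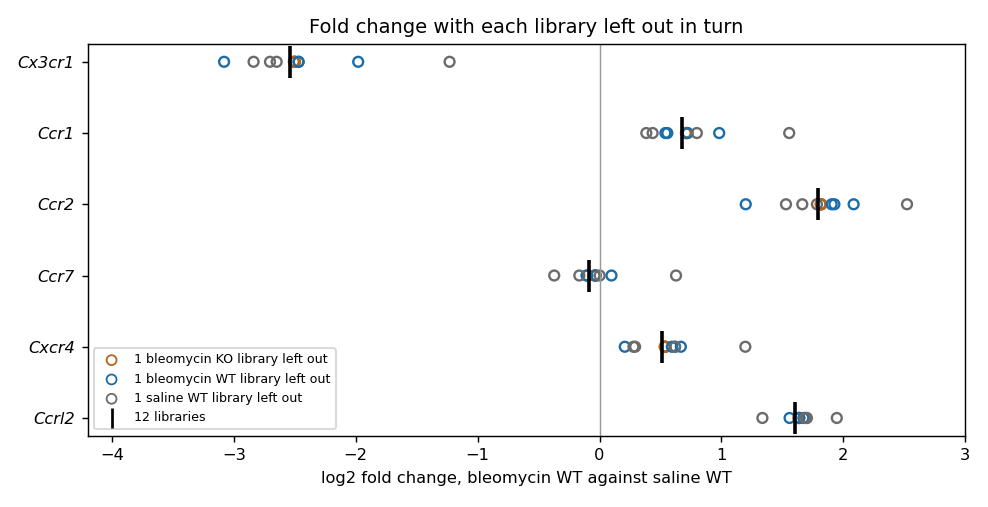
Log2 fold change of each receptor in bleomycin WT against saline WT with all 12 libraries (black ticks) and with 1 library left out in turn (circles, coloured by the group of the library left out). Cx3cr1 is at -2.54 with all 12 and at -1.23 without saline WT 2, and Ccrl2 stays between 1.34 and 1.95.

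Among 14 other conventional chemokine receptors, 12 were tested, and most were rare. In bleomycin WT against saline WT 0 rose and 0 fell in 12 libraries, with 4 fold changes above 0, 8 below and a median of -0.16, against 52.9% above 0 and a median of 0.08 over all tested genes. Cxcr2, the neutrophil receptor for Cxcl1 and Cxcl2, averaged 42.1 CPM in bleomycin KO, 23.3 in bleomycin WT and 191 in saline WT, with a log2 fold change of -3.07 in bleomycin WT against saline WT (SE 1.21; adjusted p in edgeR 0.279). Ccr10 and Ccr1l1 did not pass the filter on low counts. In bleomycin KO against bleomycin WT 0 of the 12 passed, all 12 had a fold change above 0, and the median was 0.63; in 10 libraries 10 were above 0, 2 below and the median was 0.27. Over all tested genes 49.3% had a fold change above 0 in that comparison in 12 libraries, and 47.6% in 10.

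Atypical receptors other than Ccrl2 were scarce in these cells. Of 6 in the list, which includes the chemerin receptors Cmklr1 and Gpr1, 4 were tested, 0 passed in any comparison, and the median log2 fold change in bleomycin WT against saline WT was -0.82. Ackr2, a scavenger of inflammatory chemokines, averaged 1.66 CPM in bleomycin KO, 1.29 in bleomycin WT and 7.25 in saline WT. Ackr3, which takes up Cxcl12, averaged 6.23, 7.0 and 10.2 CPM in the same groups. Cmklr1, the signalling receptor for chemerin, had at most 17.98 CPM in the bleomycin WT libraries and at most 54.0 CPM in the saline WT libraries. The 54.0 CPM is that of saline WT 2, where 3 counts are worth 32.4 CPM. Group means of Cmklr1 were far below those of Ccrl2. Its log2 fold change in bleomycin WT against saline WT was 0.41 in 12 libraries and 2.46 in 10.

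Several ligand genes of the 6 receptors had high counts in the same libraries. Of 14 ligand genes 12 were tested, and in bleomycin WT against saline WT 0 passed in 12 libraries, with 5 above 0, 7 below and a median of -0.27. Ccl9, a ligand of Ccr1 in mice, stood at 955, 1064, 1165 and 1242 CPM in bleomycin KO 1 to 4, at 952, 803, 1227 and 862 CPM in bleomycin WT 1 to 4, and at 375, 346, 364 and 302 CPM in saline WT 1 to 4. No bleomycin library reached down to the saline range. Of all tested genes, 4.93% had every bleomycin WT library above every saline WT library, and 8.17% had every bleomycin KO library above them. Ccl9 was named for its small p in bleomycin WT against saline WT, so its separation in that comparison was partly fixed by the choice. Its log2 fold change in bleomycin WT against saline WT was 1.47 (SE 0.34, edgeR adjusted p 0.174), and in 10 libraries it rose by 1.49 on the log2 scale (adjusted p 0.0187). Ccl6, another such ligand, averaged 3827 CPM in bleomycin KO, 5936 in bleomycin WT and 2304 in saline WT, with a log2 fold change of 1.36 in bleomycin WT against saline WT (SE 0.52; adjusted p in edgeR 0.273), and 0.47 without bleomycin WT 4. The Ccr7 ligand genes Ccl19 and Ccl21a were listed at 0 counts in all 12 libraries, and both have near-identical copies in the mouse genome, so these values are uncertain. Cx3cl1, the ligand of Cx3cr1, averaged 11.1, 6.80 and 8.51 CPM in bleomycin KO, bleomycin WT and saline WT. Rarres2, the source of the Ccrl2 ligand chemerin, ranged over 5.99 to 69.8 CPM in the bleomycin WT libraries and 0 to 30.4 CPM in the saline WT libraries, and its log2 fold change turned from 0.71 in 12 libraries to -1.11 in 10.

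A list of 16 genes of receptor signalling and shedding was also tested. It holds G proteins, receptor kinases, arrestins and effectors downstream of the receptors, and the sheddases Adam10 and Adam17, which are not downstream of them. Between bleomycin WT and saline WT 0 rose and 0 fell, 12 fold changes were above 0 and 4 below, with a median of 0.69, against 0.08 over all tested genes. In 10 libraries 11 were above 0, the median was 0.30 and that of all tested genes -0.14. Adam10, which cleaves fractalkine from the cell surface, averaged 203 CPM in bleomycin KO, 330 in bleomycin WT and 94.4 in saline WT, with a log2 fold change of 1.72 in bleomycin WT against saline WT (SE 0.65; adjusted p in edgeR 0.268). Gnb1, a G-protein beta subunit, averaged 146 ± 43.7 CPM in bleomycin KO, 1637 ± 2836 in bleomycin WT and 107 ± 52.2 in saline WT (SD, n = 4 each), and its log2 fold change in bleomycin WT against saline WT was 4.00 (edgeR adjusted p 0.201), and 1.24 without bleomycin WT 4. In bleomycin KO against bleomycin WT 0 of the 16 passed, with 4 above 0 and 12 below.

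For each receptor the genes with the most similar profile were found over the 11 libraries with at least 1000000 counts, as the smallest root mean square difference of centred log2(CPM + 1), among 8800 genes with a mean of at least 10 CPM. For Ccrl2 these were Il1rn (0.20 on the log2 scale), which encodes the interleukin-1 receptor antagonist, Ctsh (0.23), a lysosomal protease, and Apobec1 (0.24), an RNA-editing enzyme, where the median gene differed by 0.99. Il1rn averaged 1288 CPM in bleomycin KO, 1030 in bleomycin WT and 451 over the 3 deeper saline libraries. For Cx3cr1 they were Htra2 (0.23), Acvrl1 (0.28) and Mmp24 (0.28), against a median of 1.38. Those nearest to Ccr1 were Cbfb (0.20), Elp2 (0.21) and Papss1 (0.23). Ccr2 had no gene as near, with Kpna3 at 0.36, Sgk1 at 0.38 and AU020206 at 0.39. Ccr7 lay nearest to Samd11 (0.21), Rbm34 (0.23) and H2-DMa (0.24), the last a chaperone chain of antigen loading on MHC class II, and Cxcr4 to Atp2c1 (0.17), Sgk3 (0.17) and Dennd4a (0.20). The 11 libraries include the replicates that carry the group differences, and bleomycin WT 4 is among them.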

How the data were processed

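Bulk RNA-seq libraries were sequenced from small RNA amounts with the Smart-Seq V4 kit and Nextera XT tagmentation as single-end reads, per the labels' protocols. Strand is not kept by this kit, so sense and antisense reads at a locus are counted together. The authors deposited raw counts, whole numbers per gene, made with GSNAP, limma and Partek on the builds GRCm38 and mm10, per the submitters' processing notes, which give no roles or versions. The treatment of reads with several matches is not stated. The design text of the series concerns other cells and was left aside. All 12 count columns were matched to samples by the code in their labels. Counts of any 2 libraries of a group differed with a chi-square of at least 23.9 times its degrees of freedom, so no pair was counted as 1 library.

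From the counts, CPM was computed with TMM-scaled library sizes. The test was edgeR (version 4.0.16, R 4.3.3; filterByExpr with the groups, TMM, robust quasi-likelihood fit of all 12 libraries with group as the only term, Benjamini-Hochberg adjusted p under 0.05 over all 16679 genes). Each standard error was taken as the log2 fold change over the square root of F, and the common biological coefficient of variation was 0.862. Levels between genes were divided by exonic size from the deposited gene table. Cx3cr1 was also tested by exact permutation on log2(CPM + 1), a pseudocount of 1. On simulated counts of 16679 genes, the fit of bleomycin WT against saline WT recovered 77% of 100 genes changed 16-fold and 5% of 100 changed 4-fold, so changes of the size seen here mostly go uncalled at this spread. Alternatives were DESeq2 1.42.0, its size factors, no filter, limma-voom 3.58.1 with and without quality weights, the compared groups alone, the replicate number as a block, and leaving out libraries. Positions are from GENCODE on GRCm38, and 5 of the 6 members matched a RefSeq promoter window (GRCm38.p6).

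The members, gene lists and tests were chosen with earlier results of these data known. Named genes are the 6 members, the 2 genes of each pathway list with the smallest p in bleomycin WT against saline WT, the 2 most abundant of each marker list and the 3 genes most like each member; some of these are not reported here. Others (Ccl19, Ccl21a, Cx3cl1, Rarres2, Cmklr1, Ccr10, Ccr1l1 and single markers) were named after their values were seen.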

Additional observations from a re-analysis of the deposited data

Results flagged for a closer look

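In 3 of 18 combinations of member and group, 1 library lay apart from the other 3 by more than the 95% critical value of Dixon's test, where chance gives about 1 in 20 groups. Cx3cr1 in bleomycin KO had its highest library, bleomycin KO 4, at 121 CPM, against 86.2 to 91.3 CPM in the other 3. Cx3cr1 in saline WT had its highest library, saline WT 2, at 940 CPM on 87 counts, against 98.1 to 196 CPM. Ccr7 in bleomycin WT had its lowest library, bleomycin WT 3, at 167 CPM, against 253 to 268 CPM.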

How the results depend on the processing

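The number of genes past the threshold depended on the fit, and so did which member passed. In bleomycin WT against saline WT 4 genes passed in edgeR on 12 libraries, and 512 with DESeq2, 1 with DESeq2 size factors in edgeR, 780 without the filter on low counts, 319 with limma-voom and quality weights, 0 with the compared groups alone and 81 in 10 libraries; leaving out 1 library gave 1 to 11. In bleomycin KO against bleomycin WT 0 passed, 243 without the filter. In bleomycin KO against saline WT 3 passed, and 370, 1, 694, 232, 1 and 121 in the same order, with 12 in limma-voom; leaving out 1 library gave 0 to 18. Of the 6 members 0 passed in 12 libraries or with any 1 library left out. In bleomycin WT against saline WT 1 passed with DESeq2 (Cx3cr1), without the filter (Cx3cr1, adjusted p 0.0166), with quality weights and in 10 libraries (Ccrl2). In bleomycin KO against saline WT 1, Ccrl2, passed without the filter (adjusted p 0.0471), with quality weights (0.0417) and in 10 libraries (0.0190). The causes were not tested. Of 360 alternative fold changes of the members, 326 kept their sign and side of the threshold, 27 changed sign and 7 passed it.

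The sign changes were among small fold changes. With quality weights, bleomycin KO against bleomycin WT gave -0.0064 for Ccr1, 0.32 for Ccr2 and -0.012 for Ccrl2, and in 10 libraries Ccr2 was at 0.22. Leaving out 1 library, Ccr2 ranged over -0.69 to 0.21 and Ccr7 over -0.0067 to 0.20 there. In bleomycin KO against saline WT, Ccr7 was -0.16 with DESeq2, -0.17 with its size factors, -0.36 in 10 libraries and -0.24 to 0.76 with 1 library left out. Cxcr4 was -0.11, -0.082, -0.25 and -0.18 to 0.73 in the same order, and -0.35 with quality weights. In bleomycin WT against saline WT, Ccr7 was 0.18 with limma-voom, 0.18 with quality weights and -0.37 to 0.63 with 1 library left out, Cxcr4 was -0.13 with quality weights and -0.13 in 10 libraries, and Ackr3 was -0.93 to 0.13 with 1 library left out.

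Same-numbered libraries deviated with correlations of -0.182 to 0.0528 from their group means, so their expression showed no pairing by number. The labels do not say whether the numbers pair libraries, and correlations of this size cannot exclude it. With the replicate block, 2 genes passed in bleomycin WT against saline WT, 0 in bleomycin KO against bleomycin WT and 1 in bleomycin KO against saline WT, with 0 members in each, and Ccr7 was at 0.23 in the first. Depth limits saline WT 2 most, where levels under 32.4 CPM rest on fewer than 3 counts.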
